A study of Mus musculus with 8 samples.

Results

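The transcripts examined here are those of 10 plasma membrane amino acid transporter genes, chosen by name: Slc7a5, Slc3a2, Slc7a1, Slc7a6, Slc7a11, Slc1a4, Slc1a5, Slc38a1, Slc38a2 and Slc6a9. All 10 were found among the 52778 features of the deposited table. Mouse embryos at embryonic day 11.5 gave the ventricular heart tissue, with 4 libraries labelled control and 4 labelled Atf4 frameshift mutant. The mutant allele, Atf4(del7/del7) in the series text, lacks 7 bases of exon 3 in both copies of the gene and is described there as a knockout of the whole animal, so every cell type of the ventricle carries it. The labels give no treatment, litter, sex or pooling for either group. The genotype field reads C57BL/6 WT for all 8 libraries, mutants included, so the groups were taken from the sample titles. The series text calls the 4 libraries of a genotype biological replicates. Whether each came from 1 embryo is not given, and the p-values measure the spread between these libraries.

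Amino acids cross the plasma membrane through families of solute carriers with overlapping substrates. Heterodimeric carriers pair a light chain of the Slc7 family with the glycoprotein heavy chain 4F2hc, encoded by Slc3a2, and exchange 1 amino acid for another. Sodium-coupled carriers, such as those of the Slc6 and Slc38 families, build up the inside pools that such exchangers trade against. ATF4, a transcription factor whose translation is raised by a lack of amino acids and by several other stresses, is known in cultured cells to drive several of these genes by binding C/EBP-ATF composite elements in their promoters or introns.

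Expression is given as TPM, which divides by the length of the transcript and by the size of the library, so that levels can be compared between genes. Read depth is unknown, because TPM keeps none. A gene was tested where 4 or more libraries reached 1 TPM, which left 15545, with limma on log2(TPM + 1). Fold changes are mutant minus control on that scale, which understates the change of low genes. The Atf4 transcript itself was higher in the mutants, at 166 ± 15.1 TPM against 112 ± 8.07 TPM (SD, n = 4 each), so RNA level is no check of the protein's absence. Of 10 ventricular cardiomyocyte markers none stayed under 1 TPM, and they summed to between 37493 and 40383 TPM per library. Of 5 atrial markers 1, Sln, stayed under 1 TPM, and the 5 summed to between 9689 and 11311 TPM. These sums do not show which chambers were taken. Of 7 neuronal markers, checked because the extraction protocol attached to the samples names cultured neurons, 6 stayed under 1 TPM in every library.

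None of the 9 transporters tested passed the adjusted threshold of 0.05 (limma, Benjamini-Hochberg over all 15545 genes), a count of 0, where 0.0386% of all genes tested passed in either direction. Slc7a11 stayed under 1 TPM in every library and was not tested. At an unadjusted p below 0.05 there were 3 transporters, Slc1a4, Slc7a5 and Slc6a9, all lower in the mutants, where 3.45% of all genes tested were lower at that level. The same 3 were the transporters in which all 4 mutant values lay under all 4 control values, and 2.05% of all genes tested were separated in that direction. Over the 9, 8 had a lower mean in the mutants against 51.8% of all genes tested, and the median log2 fold change was -0.098 against -0.0033. The transporters were chosen with earlier results of these data known, so these counts and shares are a description only. The other 6 tested transporters had log2 fold changes between -0.15 and 0.0023, with groups that overlapped.

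**Figure D1:**
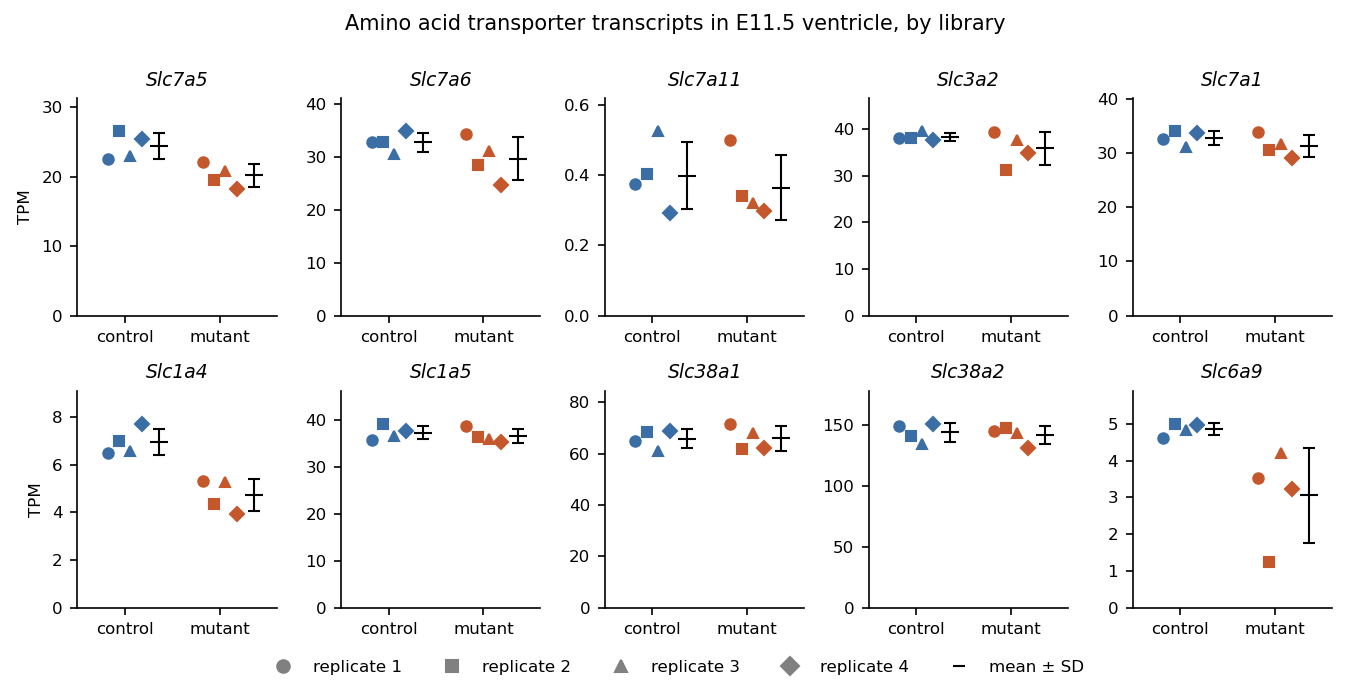
TPM of each of the 10 transporters in the 4 control (blue) and 4 Atf4 mutant (orange) libraries, with 1 symbol shape per replicate number, the mean and SD in black, and axes that start at 0. Mutant values lie wholly below control values for Slc7a5, Slc1a4 and Slc6a9, and mutant replicate 2 is far below the other mutants for Slc6a9.

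**Figure D2:**
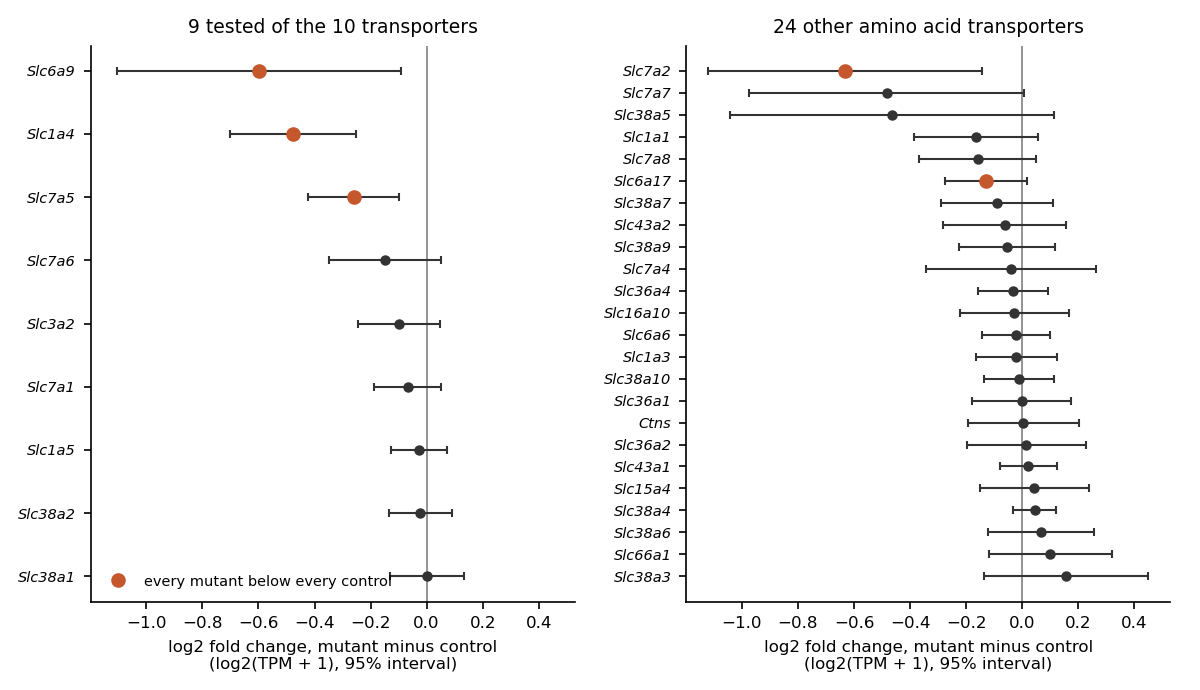
Log2 fold change with its 95% interval from limma for the 9 transporters tested (left) and for 24 other amino acid transporters tested (right). Orange points are genes in which every mutant library lies below every control library, 3 on the left and 2 on the right. Of all genes tested 2.05% were separated in that direction. On the right, Slc7a2 was tested only because each control reached 1 TPM, which no mutant did, so its separation was built into the filter.

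Slc1a4 encodes ASCT1, a sodium-dependent exchanger of alanine, serine, cysteine and threonine, and lies on chromosome 11 (bases 20302180 to 20332713, minus strand). Its level was 6.51, 6.98, 6.58 and 7.71 TPM in the controls and 5.32, 4.37, 5.30 and 3.94 TPM in the mutants. The highest mutant lay 1.19 TPM below the lowest control, and mutant replicates 2 and 4 were the lowest. The group means were 6.94 ± 0.553 and 4.73 ± 0.688 TPM (SD, n = 4 each), 31.9% lower in the mutants. On the log2 scale the change was -0.48 (standard error 0.0997), with a 95% interval from -0.70 to -0.25. With limma the unadjusted p was 0.000870, the 27th smallest of all genes tested, and the adjusted p was 0.501.

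The promoter sequences of Slc1a4 and Slc7a11 are shown because these were the transporters whose window held the C/EBP-ATF composite element, searched on both strands as TGATGNAA (TTNCATCA on the other strand). The sequences are from RefSeq on GRCm38.p6, 5′ to 3′ on the strand of the gene, from 150 bases before the annotated start to the 20th base transcribed, with every match in capitals. The Slc1a4 stretch is chr11:20332694-20332863 and that of Slc7a11 is chr3:50443594-50443763.
Slc1a4: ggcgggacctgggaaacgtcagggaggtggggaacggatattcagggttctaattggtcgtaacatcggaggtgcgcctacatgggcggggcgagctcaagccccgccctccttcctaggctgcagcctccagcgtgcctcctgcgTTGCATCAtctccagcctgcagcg
Slc7a11: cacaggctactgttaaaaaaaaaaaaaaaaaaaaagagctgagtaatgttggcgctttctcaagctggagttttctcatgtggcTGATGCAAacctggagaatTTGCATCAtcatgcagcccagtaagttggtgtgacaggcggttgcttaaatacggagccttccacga

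In Slc1a4 the match began 4 bases before the annotated start and so spanned it (bases 20332710 to 20332717). In Slc7a11 there were 2 matches in opposite orientation with 11 bases between them, the outer one beginning 66 bases before the start. The start used for Slc7a11 (base 50443613) lies inside the listed feature, which reaches base 50499087. All 3 had the form TGATGCAA on one strand or the other. That form was present in 0.895% of the 32851 windows of 250 bases before to 50 after a start, and TGATGNAA in 3.97%. Counted by gene, the shares were 1.03% and 4.51% of 27025 genes. The table held windows for 7 of the 10 transporters, 11 windows in all, and 2 genes had a match. Slc7a5, Slc1a5 and Slc38a1 had no window in it. The windows of Slc6a9, Slc7a1, Slc7a6, Slc38a2 and Slc3a2 did not hold these letters, which says nothing about elements elsewhere in those genes. Of 46 other amino acid transporters described further on, 35 had windows, and 1, Slc7a7, held TGATGCAA. Between the 2 genes with a match, Slc1a4 had the smallest p of the transporters and Slc7a11 was hardly detected in either group.

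Slc1a5 encodes ASCT2, the glutamine and neutral amino acid exchanger most similar to ASCT1, and lies on chromosome 7 (bases 16781334 to 16798274, plus strand). It was measured at 35.9, 39.3, 36.6 and 37.7 TPM in the controls and 38.8, 36.5, 35.9 and 35.3 TPM in the mutants. The groups overlapped almost completely. The log2 fold change was -0.029, and its 95% interval, from -0.13 to 0.071, does not reach the size measured for Slc1a4 (limma, unadjusted p of 0.535, adjusted p of 0.960). The difference between the fold changes of the 2 genes was not itself tested. In TPM, Slc1a5 was the more abundant of the pair, with 37.4 TPM against 6.94 TPM in the controls.

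Slc7a5 encodes LAT1, the light chain that brings in leucine and other large neutral amino acids, and lies on chromosome 8 (bases 121881146 to 121907686, minus strand). The controls held 22.6, 26.5, 23.0 and 25.5 TPM and the mutants 22.2, 19.5, 20.9 and 18.3 TPM. The groups were separated by 0.406 TPM, mutant replicate 1 lying just under control replicate 1. The means were 24.4 ± 1.91 and 20.2 ± 1.69 TPM (SD, n = 4 each), 17.2% lower in the mutants. This gave a log2 fold change of -0.26 (standard error 0.0728), with a 95% interval from -0.42 to -0.097. Limma gave an unadjusted p of 0.00549 and an adjusted p of 0.720.

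Slc7a6 encodes y+LAT2, a light chain that exchanges cationic for neutral amino acids, and lies on the plus strand of the same chromosome (bases 106168219 to 106198714). Its values were 32.8, 32.8, 30.6 and 34.8 TPM in the controls and 34.2, 28.5, 31.0 and 24.6 TPM in the mutants. Mutant replicates 2 and 4 lay below every control, while replicates 1 and 3 lay within the control range. Its log2 fold change was -0.15 with a 95% interval from -0.35 to 0.052 (limma, unadjusted p of 0.129, adjusted p of 0.861). Leaving out mutant replicate 4 made it -0.066, and leaving out mutant replicate 1 made it -0.22 (limma, unadjusted p of 0.0226, adjusted p of 0.720).

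Slc3a2, the heavy chain that carries these light chains to the cell surface, lies on chromosome 19 (bases 8706882 to 8723369, minus strand). It held 38.1, 37.9, 39.5 and 37.5 TPM in the controls and 39.4, 31.3, 37.6 and 34.9 TPM in the mutants. The SD was 2.17% of the mean in the controls and 9.85% in the mutants, with replicates 2 and 4 again below every control. The log2 fold change was -0.098 with a 95% interval from -0.24 to 0.049 (limma, unadjusted p of 0.167, adjusted p of 0.888). It was -0.037 when mutant replicate 2 was left out and -0.14 when mutant replicate 1 was (limma, unadjusted p of 0.0445, adjusted p of 0.738).

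Slc7a11 encodes xCT, the light chain that imports cystine in exchange for glutamate, and lies on chromosome 3 (bases 50364936 to 50499087, minus strand). It was the lowest of the 10, at 0.375, 0.403, 0.525 and 0.293 TPM in the controls and 0.500, 0.342, 0.321 and 0.298 TPM in the mutants. All mutant values lay within the control range. The difference of group means was -0.035 on the log2(TPM + 1) scale and was not tested. When genes of any level were tested, the adjusted p was 0.936.

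Because TPM is scaled for length, light chain levels can be set against the heavy chain within a library. The 6 light chains that pair with Slc3a2 (Slc7a5, Slc7a6, Slc7a7, Slc7a8, Slc7a10 and Slc7a11) summed to 1.82 ± 0.106 times the Slc3a2 level in the controls and 1.67 ± 0.136 times in the mutants (SD, n = 4 each). Most of this was Slc7a6, at 0.856 ± 0.0626 and 0.828 ± 0.0888 times Slc3a2, and Slc7a5, at 0.639 ± 0.0589 and 0.567 ± 0.0408 times. Slc7a11 was at 0.0104 times Slc3a2 in the controls and 0.0102 times in the mutants. The ranges of the 2 groups overlapped for the sum and for each of these 3 ratios.

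Slc7a1 encodes CAT1, the main carrier of arginine and lysine, which works without a heavy chain, and lies on chromosome 5 (bases 148327410 to 148399904, minus strand). The controls held 32.6, 34.0, 31.1 and 33.8 TPM and the mutants 34.0, 30.7, 31.6 and 29.1 TPM. Mutant replicates 2 and 4 were below every control and the other two within their range. The log2 fold change was -0.068 with a 95% interval from -0.19 to 0.053 (limma, unadjusted p of 0.237, adjusted p of 0.905). With mutant replicate 4 left out it was -0.034, and with mutant replicate 1 left out -0.11 (limma, unadjusted p of 0.0639).

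Slc38a1 and Slc38a2 encode SNAT1 and SNAT2, sodium-coupled carriers of glutamine, alanine and other small neutral amino acids. They lie on the minus strand of chromosome 15 (bases 96571418 to 96643438 and 96687392 to 96699728), with 43953 bases and 2 other listed features between them. Slc38a2 was the most abundant of the 10, at 149, 141, 134 and 151 TPM in the controls and 145, 147, 143 and 131 TPM in the mutants. Only mutant replicate 4 lay below the controls. Its log2 fold change was -0.023 with a 95% interval from -0.14 to 0.089 (limma, unadjusted p of 0.656, adjusted p of 0.973). Slc38a1 held 64.7, 68.5, 61.0 and 68.6 TPM in the controls and 71.6, 61.7, 68.0 and 62.2 TPM in the mutants. The other 3 mutants lay within the control range and mutant replicate 1 above it, with a log2 fold change of 0.0023 and a 95% interval from -0.13 to 0.13 (limma, unadjusted p of 0.969, adjusted p of 0.998).

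Slc6a9 encodes GlyT1, a sodium- and chloride-dependent glycine carrier that red cell precursors use to supply haem synthesis, and lies on chromosome 4 (bases 117835258 to 117869305, plus strand). The controls were close together at 4.62, 5.0, 4.84 and 4.96 TPM, and the mutants were spread at 3.53, 1.24, 4.22 and 3.22 TPM. Every mutant lay below every control, by 0.403 TPM at the nearest, and mutant replicate 2 was far below the rest. The means were 4.85 ± 0.170 and 3.05 ± 1.28 TPM (SD, n = 4 each). This gave a log2 fold change of -0.60 (standard error 0.226), with a 95% interval from -1.11 to -0.090 (limma, unadjusted p of 0.0256, adjusted p of 0.80). Without mutant replicate 2 it was -0.34, with an unadjusted p of 0.00761 and an adjusted p of 0.825. Ccdc24, on the opposite strand, shares 51 bases with the end of Slc6a9 and averaged 3.96 TPM among controls and 3.40 TPM among mutants. Whether the counting used strand is not given in the sources used here.

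Red cell markers, taken as a sum, had a lower range in the mutants, with overlap. The 9 erythroid markers, which were haemoglobin genes, Alas2 and Slc4a1, summed to 4684, 5991, 7407 and 7986 TPM in the controls and 4596, 4374, 6089 and 5269.8 TPM in the mutants, and all 9 were detected. Of these markers only Hbb-bh1 had a positive log2 fold change (0.068), and the lowest was -0.48 for Hba-a2. Control replicate 1 and mutant replicate 1 had nearly equal sums and held 4.62 and 3.53 TPM of Slc6a9. With the haemoglobin level of each library as a covariate the log2 fold change of Slc6a9 was -0.43 (limma, unadjusted p of 0.113), while that of Slc1a4 was -0.43 (unadjusted p of 0.00527) and that of Slc7a5 was -0.24 (unadjusted p of 0.0234). The same fit gave adjusted p-values (limma) of 0.951 for Slc6a9, 0.791 for Slc1a4 and 0.951 for Slc7a5. In tissue RNA, fewer cells of a type and less RNA per cell cannot be told apart. The 9 erythroid markers had a mean log2 level of 8.07 among controls and 7.77 among mutants, and the groups overlapped in each marker. Only the haemoglobin genes entered the covariate, and all of these but Hbb-bh1 had a lower mean in the mutants. The covariate therefore cannot separate red cell content from genotype. The part of the erythroid markers in the Slc6a9 difference was not tested.

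**Figure D3:**
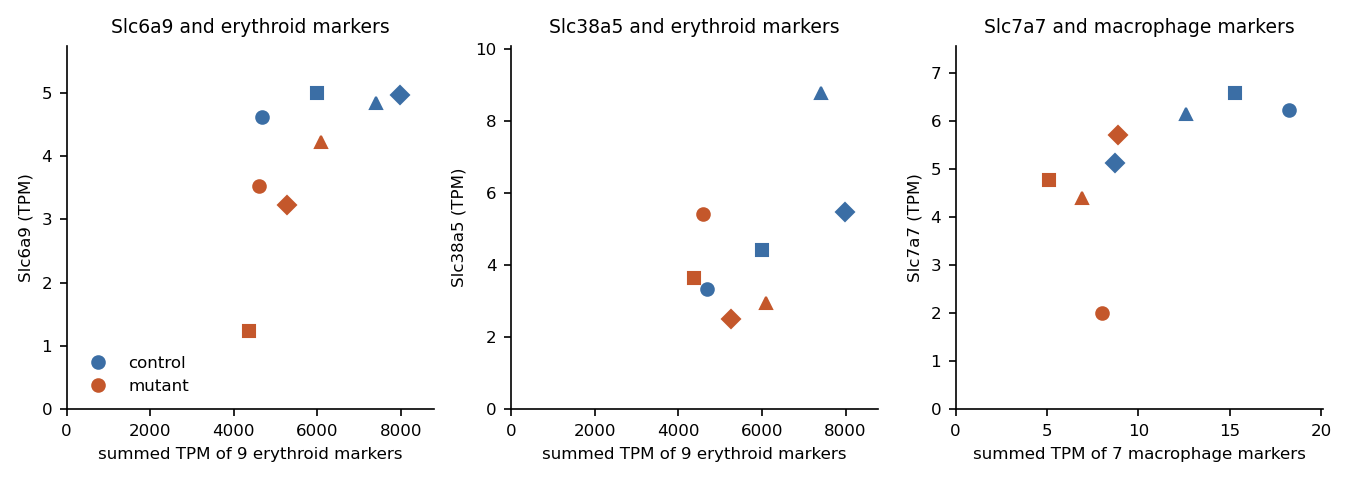
Level of Slc6a9 and of Slc38a5 against the summed TPM of 9 erythroid markers, and of Slc7a7 against the summed TPM of 7 macrophage markers, 1 point per library, controls blue and mutants orange, with 1 shape per replicate number and linear axes from 0. Mutant replicate 2 has the lowest Slc6a9 level (1.24 TPM) and the lowest erythroid sum (4374 TPM), and mutant replicate 1 the lowest Slc7a7 level (2.00 TPM).

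The order of levels was the same in both groups: Slc38a2, Slc38a1, Slc3a2, Slc1a5, Slc7a1, Slc7a6, Slc7a5, Slc1a4, Slc6a9 and Slc7a11, except that Slc1a5, at 36.6 TPM, stood above Slc3a2, at 35.8 TPM, in the mutants. Among the controls, neighbours in this order overlapped between Slc3a2 and Slc1a5 and between Slc7a1 and Slc7a6. The remaining neighbours were separated. Together the 10 transcripts summed to 387 ± 14.3 TPM among controls and 369 ± 22.4 TPM among mutants (SD, n = 4 each), with overlapping ranges of 368 to 402 and 343 to 395 TPM.

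The mutant libraries differed among themselves more than a single mean shows. Mutant replicate 4 lay below every control in 8 of the 10 transporters and replicate 2 in 6, while replicates 1 and 3 did so in 3 each, which were Slc7a5, Slc1a4 and Slc6a9. Replicate 4 was the lowest mutant in 7 of the 10 and replicate 1 the highest in 8. The median deviation of the 10 from the control mean was 0.044 in mutant replicate 1, -0.14 in replicate 2, -0.064 in replicate 3 and -0.15 in replicate 4, on the log2(TPM + 1) scale. Over all genes tested the same median was 0.033, -0.012, 0.0034 and -0.025, the same order of libraries in a narrower range. Over the 17 alternative settings, between 2 and 5 transporters had an unadjusted p below 0.05 (limma). The count was 5 without mutant replicate 1, where 6.67% of all genes tested were at that level. It was 2 without control replicate 2 (5.32% of all genes) and with the haemoglobin covariate (5.15%). With the filter at 5 TPM, which left 8 transporters tested, it was also 2 (5.86%). None passed the adjusted threshold in any of these settings.

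**Figure D4:**
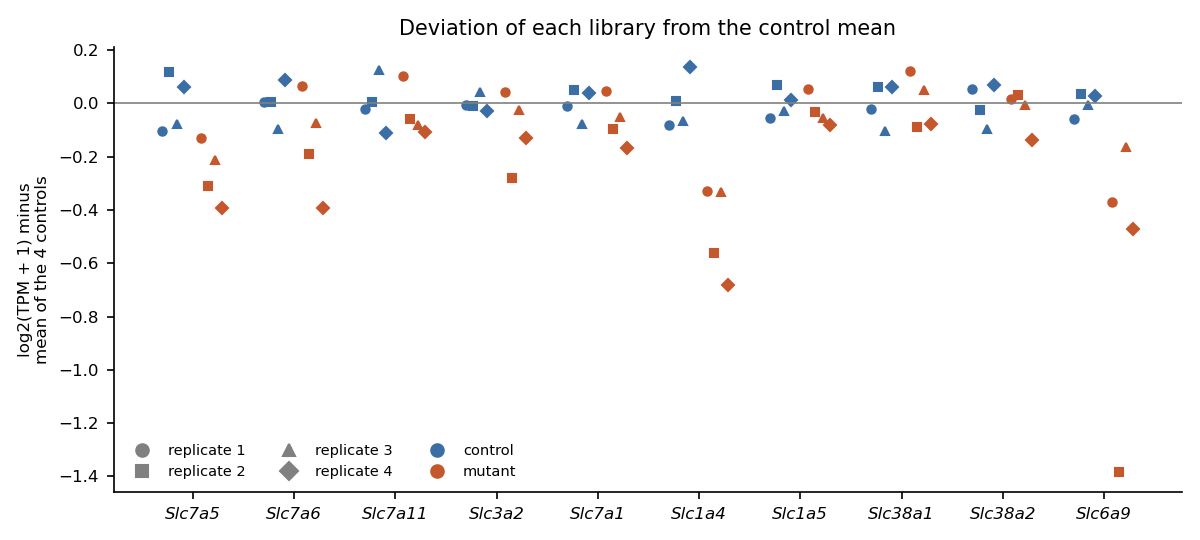
Deviation of log2(TPM + 1) from the mean of the 4 controls, for each of the 10 transporters and 8 libraries, controls blue and mutants orange, with 1 shape per replicate number. Mutant replicates 2 and 4 (squares and diamonds) lie lowest in most genes, and all 4 mutants lie below the controls for Slc7a5, Slc1a4 and Slc6a9.

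Other amino acid transporters, 46 genes of the plasma membrane, lysosome and other membranes inside the cell, were set beside these. Of them 24 were expressed enough to be tested, and none passed the adjusted threshold (limma), a count of 0, with 16 lower and 8 higher in the mutants and a median log2 fold change of -0.025. Slc7a2 is among these 24 because its 4 controls reached 1 TPM while no mutant did, so its difference was built into the filter and nothing is read from it. It was the 1 gene of the 24 at an unadjusted p below 0.05. Every mutant lay below every control in Slc7a2 and in Slc6a17, where 3.68% of all genes tested were separated in either direction. A further 172 tested solute carriers were taken by symbol alone, whatever their substrate. None of them passed the adjusted threshold, and the median was -0.0051. At an unadjusted p below 0.05, 5 were lower and 6 higher (limma, 6.1% of all genes tested in either direction).

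The most abundant of the 46 did not differ beyond their spread, with unadjusted p of at least 0.215 (limma). Slc38a4, the third Slc38 gene of the chromosome 15 group, held 159 ± 3.50 and 164 ± 5.74 TPM, Slc38a10 75.8 ± 1.98 and 75.4 ± 6.17 TPM, Slc6a6, the taurine carrier, 66.8 ± 2.64 and 65.9 ± 4.86 TPM, and Slc43a1, a carrier of large neutral amino acids, 18.8 ± 0.523 and 19.1 ± 0.602 TPM (SD, n = 4 each). Their log2 fold changes lay between -0.022 and 0.045. In the controls Slc38a4 stood above Slc38a2, whose mean was 144 TPM.

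Among those of the 46 with a mean of at least 5 TPM, Slc7a7, Slc6a17, Slc38a4 and Slc66a1 had the smallest p. Slc6a17, a vesicular carrier of neutral amino acids, held 6.85, 7.03, 7.53 and 7.41 TPM in the controls and 6.77, 6.06, 6.76 and 6.43 TPM in the mutants (log2 fold change of -0.13, limma unadjusted p of 0.0791, adjusted p of 0.841). Slc66a1, which exports cationic amino acids from lysosomes, had a log2 fold change of 0.10 (limma, unadjusted p of 0.328). Slc7a7, which encodes the light chain y+LAT1, held 6.23, 6.58, 6.13 and 5.12 TPM in the controls and 2.00, 4.77, 4.40 and 5.70 TPM in the mutants, overlapping at mutant replicate 4. Its log2 fold change was -0.48 with a 95% interval from -0.98 to 0.0075 (limma, unadjusted p of 0.0529, adjusted p of 0.821).

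Slc7a2 and Slc38a5 were singled out after their values were seen. Slc7a2, a cationic amino acid carrier, held 1.56, 2.47, 1.01 and 3.40 TPM in the controls and 0.990, 0.988, 0.935 and 0.779 TPM in the mutants, a log2 fold change of -0.63. It was tested because each control reached 1 TPM, which no mutant did, and its values are given as a description. Slc38a5, for the glutamine and glycine carrier SNAT5, held 3.34, 4.42, 8.77 and 5.47 TPM in the controls and 5.41, 3.64, 2.93 and 2.51 TPM in the mutants, with overlap (log2 fold change of -0.46, limma unadjusted p of 0.102). Control replicate 3, the second highest in erythroid markers, was its highest library, and mutant replicate 1, among the lowest in them, its highest mutant.

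Slc7a7 and Slc7a2 are both expressed in macrophages, and macrophage markers were lower in the mutants save at 1 library. The 7 markers, of which Adgre1 and Fcgr1 stayed under 1 TPM throughout, summed to 18.3, 15.3, 12.6 and 8.74 TPM in the controls and 8.04, 5.12, 6.89 and 8.87 TPM in the mutants. Mutant replicate 4 stood just above control replicate 4. That control, with the fewest macrophage marker transcripts of its group, had the lowest Slc7a7 level of the controls and the highest Slc7a2 level. The mutants did not follow 1 order. Replicate 1, with a marker sum of 8.04 TPM, had the lowest Slc7a7 level (2.00 TPM), while replicate 2, lowest in the markers, held 4.77 TPM. Mutant replicate 4 was the highest mutant in the marker sum and in Slc7a7, and the lowest in Slc7a2 (0.779 TPM). The part of these markers in either difference was not tested.

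The genes whose pattern over the 8 libraries was most like that of Slc1a4, the transporter with the smallest p, were Prkag3, Iars, Aldh1l2, Cars and Aldh18a1, out of 11626 genes with a mean of at least 5 TPM. Likeness was the mean absolute difference between the deviations of the 2 genes from their own means, and it was 0.072, 0.084, 0.093, 0.094 and 0.096 on the log2(TPM + 1) scale. Prkag3, a regulatory subunit of AMP-activated protein kinase, held 8.08, 6.96, 7.55 and 8.43 TPM in the controls and 6.80, 5.10, 6.30 and 4.38 TPM in the mutants, with replicates 2 and 4 lowest as for Slc1a4 (log2 fold change of -0.41, limma adjusted p of 0.758). Aldh18a1, which makes the proline precursor from glutamate, held 45.2, 46.9, 40.5 and 43.5 TPM in the controls and 36.7, 33.7, 36.2 and 33.8 TPM in the mutants (log2 fold change of -0.32, limma adjusted p of 0.305). Iars and Cars, for tRNA synthetases, and Aldh1l2, for a mitochondrial folate enzyme, passed the adjusted threshold over all genes (limma, adjusted p of 0.00883, 0.0420 and 0.0430). Of all genes tested 0.0386% passed it in either direction. The log2 fold changes of Iars, Cars and Aldh1l2 were -0.41, -0.59 and -0.45. Likeness was taken over controls and mutants together, so fold changes near that of Slc1a4 followed from the choice and are no separate result. The residual SD of Slc1a4 was 0.143, where the median over all genes tested was 0.103.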

How the data were processed

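The authors deposited 1 table of TPM values with a column per library. Per the submitters' processing notes, Trim Galore 0.6.7, HISAT2 2.2.1, StringTie 2.2.1, featureCounts and DESeq2 were used with GRCm38 (mm10), with no roles given. Coordinates of all 10 transporters were identical to RefSeq genes of GRCm38.p6. Multi-mapping reads, strand and library preparation are uncertain: the series text names a poly(A) kit and the sample protocols ribosomal RNA depletion.

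The scale was log2(TPM + 1), not scaled otherwise, and a gene needed 1 TPM in 4 or more libraries. The 2 groups were compared by limma 3.58.1 in R 4.3.3, with variances that follow mean expression, no covariate, two-sided p-values and Benjamini-Hochberg adjustment over all genes at 0.05. The fit was tested on simulated data. Protein sequences were not used here, and 1 erythroid marker is not reported. Tables and plots used Python 3.11.15, pandas 2.3.3 and matplotlib 3.10.9. The transporters and lists were chosen with earlier results of these data known. Named are all 10 transporters, Atf4, the 4 other transporters with the smallest p at a mean of at least 5 TPM, the 4 most abundant, and the 5 genes most like the transporter with the smallest p. The alternatives changed the pseudocount (to 0.1), the filter (none, or 5 TPM), the scaling or the variance model, added a replicate block or a haemoglobin covariate, or left out each library in turn.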

Additional observations from a re-analysis of the deposited data

Results flagged for a closer look

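In 23 named genes, 46 groups of 4 libraries were searched for a highest or lowest library set far apart from the other 3 (Dixon's test). This happened 1 time, where chance gives about 2.3, and in none of the 10 transporters. Cars held 14.7 TPM in control replicate 3 against 16.3 to 16.5 TPM in the other controls, on the side of the mutants.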

How the results depend on the processing

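No transporter of the 10 passed the adjusted threshold in any of the 17 alternatives, and the smallest adjusted p was 0.351. Slc7a5, Slc3a2, Slc7a1, Slc7a6, Slc1a4, Slc1a5 and Slc6a9 were lower in the mutants in all alternatives run on them. Slc1a4 stayed between -0.55 and -0.41 and Slc7a5 between -0.30 and -0.22, each with an unadjusted p below 0.05 in all 17. Slc6a9 ranged from -0.78 to -0.34, with an unadjusted p below 0.05 in 14 of 16. Slc38a1, near 0, was -0.0066 with quantile normalization and -0.010 with weights per library, and with each library left out in turn ranged from -0.038 to 0.032. Slc38a2 ranged from -0.055 to 0.015 in the same way, and Slc1a5 from -0.056 to -0.0054. The 6 calls over all genes became 0 with no filter, 0 with no variance trend, 1 with the haemoglobin covariate and 0 to 3 with a library left out. Same-numbered libraries did not deviate together (correlations from -0.082 to 0.035, 2 of 8 libraries closest to their own number), so the numbers are not taken to pair them. With the replicate block, calls over all genes were 0, and no call on a transporter changed. Slc6a9 was removed by the filter at 5 TPM. The unknown read depth limits Slc7a11 most.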

Other observations

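Gm32457, a feature listed inside Slc38a1 on the same strand (chromosome 15, bases 96579969 to 96581764), was looked at after its values were seen. It held 4.56, 5.04, 5.48 and 5.12 TPM in the controls and 3.05, 4.35, 3.57 and 3.86 TPM in the mutants, so every mutant lay below every control while the groups overlapped for Slc38a1 itself. Its log2 fold change was -0.37 with a 95% interval from -0.59 to -0.14 (limma, unadjusted p of 0.00472, adjusted p of 0.720). How reads that fall in both features were assigned is not given in the sources used here.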
